A study of Mus musculus with 20 samples.

Results

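Ephrins and their Eph receptors are the surface proteins through which limb motor axons choose a dorsal or a ventral path. The 10 genes described here (Efna1, Efna2, Efna5, Efnb1, Efnb2, Epha3, Epha4, Epha5, Epha7 and Ephb1) were taken by gene symbol, and all 10 had a probe set among the 19936 genes tested. Where a gene had several probe sets, the brightest by its mean was used. The series asked which genes the transcription factor Lmx1b controls in the limb. Its 20 Affymetrix whole-transcript arrays each measured the RNA of a single limb from a 129Sv mouse embryo at embryonic day 13.5. They fell into 4 groups of 5 arrays: Lmx1b -/- hindlimbs, wild-type hindlimbs, Lmx1b -/- forelimbs and wild-type forelimbs. The labels give no other allele, transgene or treatment in any group, and they call the mutants loss-of-function and name no tissue-specific Cre, so the genotype is taken as one that all cells of the embryo carry. The arrays are called biological replicates, but the labels do not tell whether some limbs share an embryo, and the p-values hold only for the spread among these arrays.

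Eph receptors are tyrosine kinases that are activated when a neighbouring cell presents an ephrin, and in growing axons the contact is usually repulsive. The ephrin-A ligands are held in the membrane by a lipid anchor and bind EphA receptors, whereas the ephrin-B ligands cross the membrane and bind EphB receptors and EphA4. In chick and mouse embryos, axons from the lateral division of the lateral motor column, rich in EphA4, avoid ephrin-A in the ventral limb mesenchyme and grow dorsally, and axons from its medial division, rich in EphB1, avoid ephrin-B in the dorsal mesenchyme and grow ventrally. Lmx1b, a LIM-homeodomain factor of the dorsal mesenchyme, is known in the mouse to set where ephrin-A lies across the limb. Motor neuron cell bodies lie in the spinal cord and not in the limb, and RNA from a whole limb gives an amount, not a position.

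The labels were borne out by the limb genes. The targeted gene Lmx1b averaged 5.92 ± 0.114 in Lmx1b -/- hindlimbs against 6.45 ± 0.0826 in wild-type hindlimbs, and 5.72 ± 0.0785 in Lmx1b -/- forelimbs against 6.30 ± 0.127 in wild-type forelimbs, as log2 intensity (SD, n = 5 each). No array of one genotype overlapped the other within a limb type, and whether the probes lie in the deleted stretch was not analysed here. Tbx5, the forelimb factor, averaged 8.75 in Lmx1b -/- forelimbs and 8.50 in wild-type forelimbs, and at most 4.73 in the hindlimb groups. A list of 7 limb mesenchyme genes averaged 8.57 to 8.75 in the 4 groups. By Y-linked transcripts, 3 of the 5 Lmx1b -/- forelimbs were female and the wild-type forelimbs were male. Median array intensity ran from 28.6 to 31.8, and all levels below are log2 intensities, so a difference of 1 is a doubling and levels of different genes cannot be compared.

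In limbs without Lmx1b, the ephrin-A ligand gene Efna5 was lower by 16.6%, and it was the single member past the threshold, a Benjamini-Hochberg adjusted p under 0.05 over all genes in limma. That is 1 of 10 members, and 1 of 10 in the lower direction, where 2.04% of all genes were called and 1.57% were called lower. Efnb2, an ephrin-B ligand gene, was 11.8% lower on average with an adjusted p of 0.0623 (limma). The receptor genes Epha4 and Ephb1, which mark axons of the lateral and medial divisions of the lateral motor column, did not pass, and their mean differences were 0.10 and 0.02 on the log2 scale. At an unadjusted p under 0.05 there were 3 members, Efna5, Efnb2 and Epha3, against 14.7% of all genes. The median difference of the 10 members was -0.02, and that of all genes was -0.00.

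**Figure D1:**
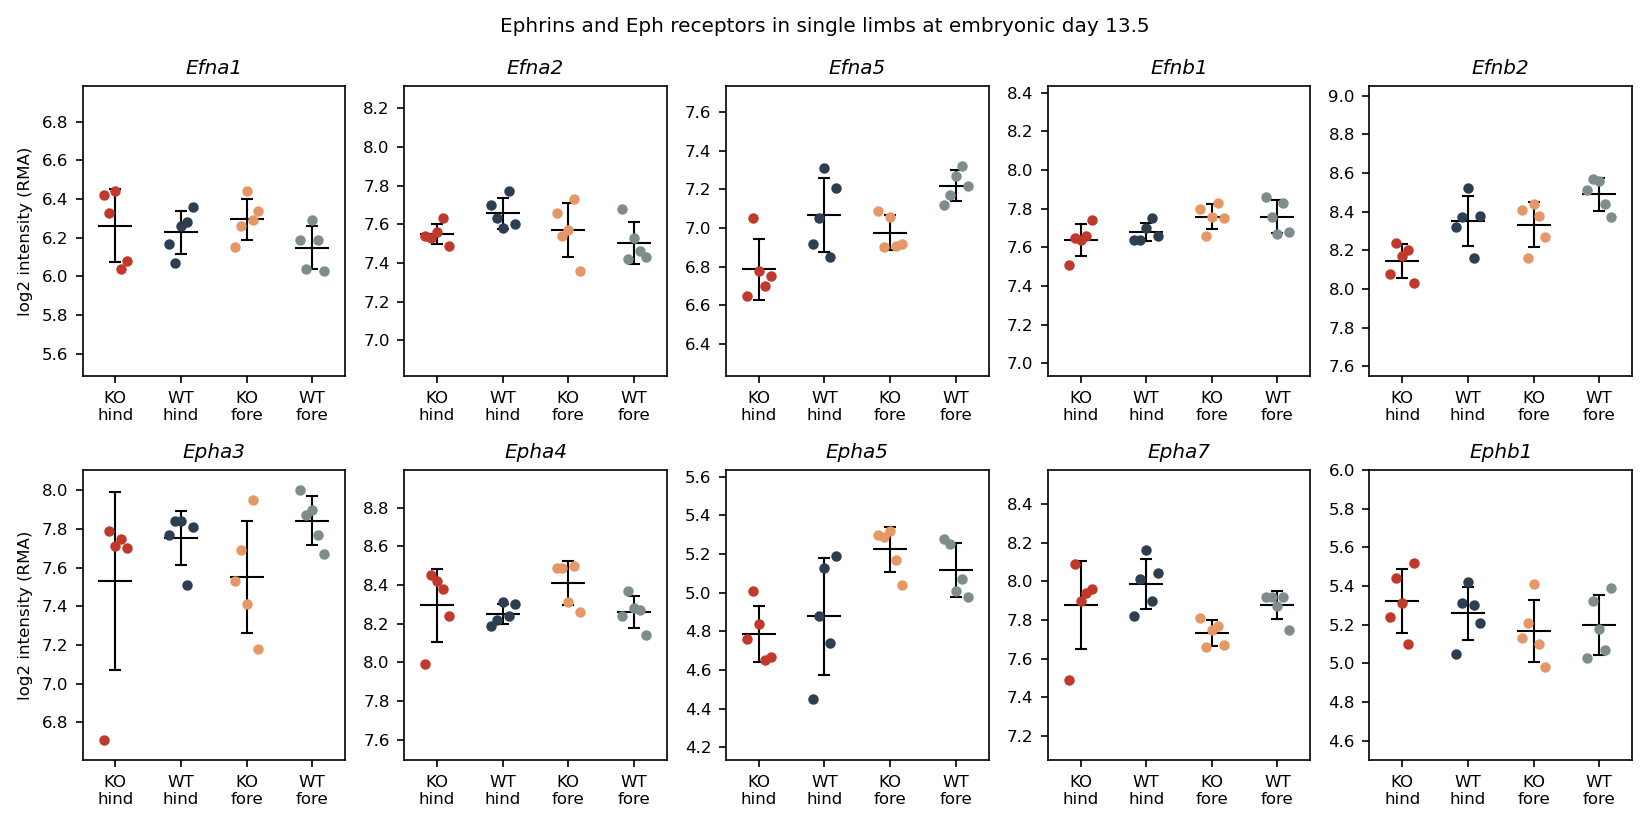
Log2 intensity (vertical axes, each spanning the same number of log2 units but from its own start) of the 10 ephrin and Eph receptor genes in every array, with KO for Lmx1b -/- and WT for wild type. Points are single limbs, the long bar is the group mean and the whiskers are 1 SD (n = 5 per group). For Efna5 all 5 KO forelimbs lie below all WT forelimbs, and 1 KO hindlimb lies far below the others for Epha3.

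The regulatory sequence just before the start of Efna5 and Efnb2 is shown because these ligand genes had the lowest p-values of the 10 members between genotypes over both limb types. Both stretches are RefSeq sequence of GRCm38.p6, the 250 bases before the annotated start, read 5′ to 3′ on the minus strand, at chr17:62881318-62881567 for Efna5 and chr8:8661243-8661492 for Efnb2. Capitals mark a GC box, searched as GGGCGG or its reverse complement CCGCCC, a motif that Sp-family factors bind.
Efna5: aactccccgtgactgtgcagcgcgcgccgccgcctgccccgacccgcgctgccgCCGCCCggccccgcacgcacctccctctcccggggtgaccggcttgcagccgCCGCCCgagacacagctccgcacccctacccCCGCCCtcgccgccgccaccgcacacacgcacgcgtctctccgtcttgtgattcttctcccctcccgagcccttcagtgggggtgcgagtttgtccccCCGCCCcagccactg
Efnb2: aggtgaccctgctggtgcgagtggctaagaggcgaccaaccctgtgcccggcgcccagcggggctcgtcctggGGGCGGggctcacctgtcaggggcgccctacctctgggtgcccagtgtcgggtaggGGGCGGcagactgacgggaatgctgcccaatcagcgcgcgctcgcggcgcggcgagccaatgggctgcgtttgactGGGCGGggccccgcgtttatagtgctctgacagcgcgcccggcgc
The Efna5 stretch holds 4 GC boxes and the Efnb2 stretch holds 3. A GC box lay in 9 of the 12 promoter windows that RefSeq lists for the 10 members, against 35.7% of 32851 mouse promoter windows of 300 bases. The GC content of the members' windows ran from 55.7% to 74.7%, with Efna5 at 73.3% and Efnb2 at 72.3%, and some windows of one gene overlap.

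The core TAATTA, a palindrome bound by many homeodomain factors including the LIM class, was searched in the same windows. It was found in 2 of the 12, against 5.29% of all promoter windows, and in neither Efna5 nor Efnb2. The windows with a match belong to Efna1 and Epha5, and 40 bases around each are shown with the match in capitals, on the minus strand at chr3:89281104-89281143 and chr5:84417590-84417629.
Efna1: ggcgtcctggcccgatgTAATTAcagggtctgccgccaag
Epha5: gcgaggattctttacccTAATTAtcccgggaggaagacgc
The match begins at position -175 in Efna1 and -230 in Epha5, with the first transcribed base as 0. A match is a string of letters and no measured site, and neither gene passed the threshold between genotypes.

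Efna5 encodes ephrin-A5, the lipid-anchored ligand known for steering retinal and motor axons. Its level in Lmx1b -/- hindlimbs was 6.65, 7.05, 6.78, 6.70 and 6.75, against 6.92, 7.05, 7.31, 6.85 and 7.21 in wild-type hindlimbs. In Lmx1b -/- forelimbs it was 7.09, 6.90, 7.06, 6.91 and 6.92, against 7.12, 7.17, 7.27, 7.32 and 7.22 in wild-type forelimbs. All 5 mutant forelimbs therefore lay below all 5 wild-type forelimbs, and 4 of the 5 mutant hindlimbs lay below all wild-type hindlimbs. Over both limb types Efna5 fell by 0.26 on the log2 scale (SE 0.060, 95% interval -0.39 to -0.14; limma, adjusted p = 0.0238). In bulk RNA, fewer cells that make a transcript and less transcript per cell cannot be told apart.

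Taken by limb type, the Efna5 difference was of like size. It was -0.28 in hindlimbs (SE 0.085; limma, adjusted p = 0.384) and -0.24 in forelimbs (SE 0.085, adjusted p = 0.205). The difference between these effects was -0.04 (SE 0.121, 95% interval -0.29 to 0.21; limma, adjusted p = 1). Group means ran in the order Lmx1b -/- hindlimb, Lmx1b -/- forelimb, wild-type hindlimb and wild-type forelimb, at 6.79 ± 0.157, 6.98 ± 0.0919, 7.07 ± 0.191 and 7.22 ± 0.0819 (SD, n = 5 each). The 2 lowest and the 2 highest neighbours in that order did not differ past the threshold (limma, adjusted p = 0.47 and 0.401), and the middle neighbours overlap and were not tested.

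Some genes of other tissues also differed between genotypes, where 2.04% of all genes were called over both limb types. The mean level of 12 endothelial genes was 6.50 in Lmx1b -/- hindlimbs (range 6.41 to 6.65) and 6.62 in wild-type hindlimbs (6.44 to 6.73), and 6.60 in Lmx1b -/- forelimbs (6.45 to 6.76) and 6.77 in wild-type forelimbs (6.61 to 6.84). Of these 12 genes 2 fell, Tek and Emcn, and none rose. Among 20 skeletal muscle genes 5 fell over both limb types, with list means of 7.04 in Lmx1b -/- hindlimbs (6.90 to 7.24), 7.09 in wild-type hindlimbs (6.82 to 7.22), 7.36 in Lmx1b -/- forelimbs (7.14 to 7.50) and 7.73 in wild-type forelimbs (7.50 to 7.93). Of 11 neuron and axon genes Gap43 and Dcx fell and Stmn2 rose, and the list averaged 5.23 in Lmx1b -/- hindlimbs (5.13 to 5.32), 5.30 in wild-type hindlimbs (5.26 to 5.33), 5.12 in Lmx1b -/- forelimbs (5.06 to 5.20) and 5.20 in wild-type forelimbs (5.16 to 5.28). All 5 macrophage genes had an unadjusted p under 0.05 with lower means, and 2 of them, Csf1r and Mrc1, fell (limma). That list averaged 5.05 in Lmx1b -/- hindlimbs (4.98 to 5.10), 5.22 in wild-type hindlimbs (5.10 to 5.36), 5.25 in Lmx1b -/- forelimbs (5.13 to 5.39) and 5.55 in wild-type forelimbs (5.40 to 5.67), so its forelimb groups did not overlap. Of 6 Schwann cell genes 1 fell, S100b, and the list averaged 5.01 in Lmx1b -/- hindlimbs (4.88 to 5.14), 5.06 in wild-type hindlimbs (4.94 to 5.19), 4.95 in Lmx1b -/- forelimbs (4.80 to 5.09) and 5.17 in wild-type forelimbs (5.06 to 5.24). The 2 erythroid genes measured had a median difference of -0.48, each with an unadjusted p under 0.05 (limma), and neither passed. Their median was -0.82 in forelimbs, where both had an unadjusted p under 0.05 (limma), and -0.14 in hindlimbs, where neither did. None of 6 cartilage and 10 epidermal genes passed, with median differences of -0.13 and -0.10. In hindlimbs alone 0 of 20 muscle genes passed, with a median difference of -0.01. The part of these tissues in the Efna5 result cannot be told apart from that of the genotype.

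With the level of a tissue list in the fit, the Efna5 difference was smaller and its call was lost. It was -0.13 with the muscle list (limma, adjusted p = 0.572), -0.14 with the neuron and axon list (adjusted p = 0.488) and -0.11 with the endothelial list (adjusted p = 0.388). Calls were lost over all genes too, with 105, 78 and 122 genes called in these fits against 406 without a list. The macrophage list was not used as a covariate. The Efna5 call was also lost with array medians centred (-0.26, adjusted p = 0.0851), with limbs that share a number averaged (-0.28, adjusted p = 0.0784) and at a threshold of 0.01. It was kept when the fit held the Y-linked level (-0.27, adjusted p = 0.0374), which bears on the uneven sexes. Leaving out single arrays gave -0.29 to -0.23, and the call was lost in 3 of 20 such fits, without wild-type forelimb replicate 4 (adjusted p = 0.0529), without wild-type hindlimb replicate 10 (adjusted p = 0.0538) and without Lmx1b -/- hindlimb replicate 9 (adjusted p = 0.0507).

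**Figure D2:**
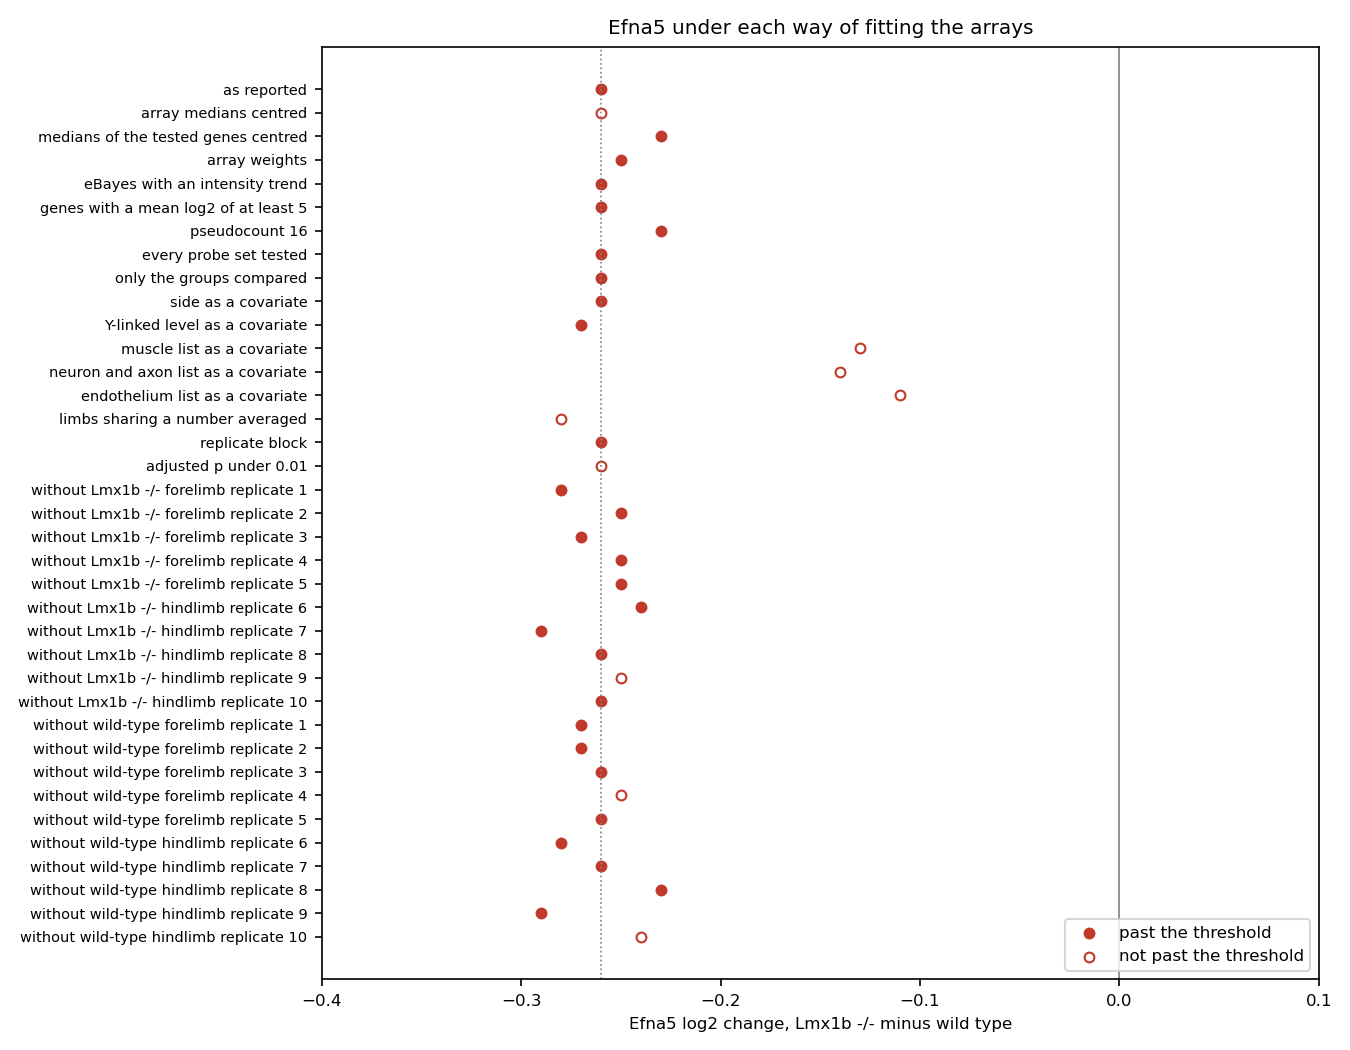
Log2 change of Efna5, Lmx1b -/- minus wild type over both limb types (horizontal axis), under each way of fitting the arrays (rows). Filled points are past an adjusted p of 0.05 (0.01 in the row that names it) and open points are not, the solid line marks 0 and the dotted line marks the reported value of -0.26. All points lie below 0, and the fits with a tissue list as a covariate lie nearest to it, at -0.14 to -0.11.

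The genes whose pattern over the 20 arrays was most like that of Efna5, by the root mean square difference after each gene was set to its own mean, were Emcn, Egflam and Emilin3. The differences were 0.078, 0.081 and 0.083 on the log2 scale, where Efna5 itself varied by 0.199. The match used these same arrays with the genotype differences left in. A fall near that of Efna5 therefore follows from the choice and is no separate result. Emcn encodes endomucin, a sialomucin of endothelial cells that is also in the endothelial list above, and it fell by 0.29 (SE 0.062; limma, adjusted p = 0.0136), a call lost in 5 of 36 other fits, among them those with the muscle, neuron or endothelial list. Egflam encodes the matrix protein pikachurin and fell by 0.25 (SE 0.060, adjusted p = 0.0293), a call lost in 17 of 36 other fits, 11 of which left out an array. Emilin3, an extracellular matrix glycoprotein gene, was at -0.22 (SE 0.063, adjusted p = 0.0715).

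Efna2, which encodes another lipid-anchored ligand known for retinal axon mapping, did not pass the threshold. Its level in Lmx1b -/- hindlimbs was 7.54, 7.53, 7.56, 7.63 and 7.49, against 7.70, 7.63, 7.58, 7.77 and 7.60 in wild-type hindlimbs. The Lmx1b -/- forelimbs had 7.66, 7.54, 7.57, 7.73 and 7.36, against 7.68, 7.42, 7.53, 7.46 and 7.43 in wild-type forelimbs. In hindlimbs 4 of the 5 mutant arrays lay below all wild-type arrays, and in forelimbs the groups were mixed. Over both limb types the difference was -0.02 (SE 0.048, 95% interval -0.12 to 0.08; limma, adjusted p = 0.897), and by limb type it was -0.11 in hindlimbs and 0.07 in forelimbs.

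Efna1 encodes the ephrin-A ligand first known from endothelial cells. Its arrays ran from 6.04 to 6.44 in Lmx1b -/- hindlimbs and 6.07 to 6.36 in wild-type hindlimbs, and from 6.15 to 6.44 in Lmx1b -/- forelimbs and 6.03 to 6.29 in wild-type forelimbs. The groups overlapped in both limb types, and the difference was 0.09 (SE 0.059, 95% interval -0.03 to 0.21; limma, adjusted p = 0.505). The ephrin-A ligands thus differed in their values, with Efna5 alone past the threshold, but differences between genes were not tested.

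Efnb2 encodes ephrin-B2, a transmembrane ligand known both for arterial endothelium and for repelling EphB1-bearing motor axons. Its level in Lmx1b -/- hindlimbs was 8.08, 8.24, 8.17, 8.20 and 8.03, against 8.32, 8.37, 8.52, 8.16 and 8.38 in wild-type hindlimbs. In Lmx1b -/- forelimbs it was 8.41, 8.16, 8.44, 8.38 and 8.27, against 8.51, 8.57, 8.56, 8.44 and 8.37 in wild-type forelimbs. The groups overlapped in both limb types, with 2 of 5 mutant arrays below all wild-type arrays in each. The difference was -0.18 over both limb types (SE 0.050, 95% interval -0.28 to -0.08, unadjusted p = 0.00148; limma, adjusted p = 0.0623), -0.21 in hindlimbs (adjusted p = 0.544) and -0.16 in forelimbs (adjusted p = 0.334).

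The Efnb2 result lay close to the threshold. It was called in 5 of 16 other fits and in 2 of 20 fits that left out an array, without wild-type hindlimb replicate 9 (-0.20, limma, adjusted p = 0.025) and without Lmx1b -/- forelimb replicate 3 (-0.19, adjusted p = 0.0458). Over those 16 fits its adjusted p ran from 0.0303 to 0.531. A list of 6 other arterial genes averaged 6.14 in Lmx1b -/- hindlimbs (range 6.03 to 6.29), 6.13 in wild-type hindlimbs (6.01 to 6.22), 6.27 in Lmx1b -/- forelimbs (6.15 to 6.36) and 6.24 in wild-type forelimbs (6.12 to 6.38). None of these 6 passed the threshold, and 1, Nrp1, had an unadjusted p under 0.05 (limma). Nrp1 was at -0.26 over both limb types, and the other 5 had positive differences. With the level of a tissue list in the fit, the Efnb2 difference was -0.09 for the endothelial list (limma, adjusted p = 0.517), -0.12 for the neuron and axon list (adjusted p = 0.531) and -0.15 for the muscle list (adjusted p = 0.529). The group means of Efnb2 stood in the same order as those of Efna5, at 8.14 ± 0.089, 8.33 ± 0.114, 8.35 ± 0.128 and 8.49 ± 0.0854 (SD, n = 5 each) in Lmx1b -/- hindlimbs, Lmx1b -/- forelimbs, wild-type hindlimbs and wild-type forelimbs.

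Efnb1, the X-linked ephrin-B ligand gene known for craniofacial and skeletal patterning, had the smallest spread of the 10 members, an SD within groups of 0.073. It ran from 7.51 to 7.74 in Lmx1b -/- hindlimbs and 7.64 to 7.75 in wild-type hindlimbs, and from 7.66 to 7.83 in Lmx1b -/- forelimbs and 7.67 to 7.86 in wild-type forelimbs. The difference was -0.02 (SE 0.040; limma, adjusted p = 0.876), and its 95% interval of -0.10 to 0.06 is narrower than that of any other member.

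Epha4 encodes the receptor that directs axons of the lateral division of the lateral motor column to the dorsal limb and that limb mesenchyme also makes. Its level in Lmx1b -/- hindlimbs was 7.99, 8.45, 8.42, 8.38 and 8.24, against 8.19, 8.22, 8.31, 8.24 and 8.30 in wild-type hindlimbs. In Lmx1b -/- forelimbs it was 8.49, 8.49, 8.31, 8.50 and 8.26, against 8.24, 8.37, 8.28, 8.27 and 8.14 in wild-type forelimbs. In each limb type 3 of the 5 mutant arrays lay above all wild-type arrays, and 1 mutant hindlimb, replicate 6, lay below them. Over both limb types the difference was 0.10 (SE 0.055, 95% interval -0.01 to 0.21; limma, adjusted p = 0.42), so an amount that is unaltered and one that is modestly higher both lie within the interval.

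Epha7, another receptor for ephrin-A ligands, had the opposite sign. Its level in Lmx1b -/- hindlimbs was 7.49, 8.09, 7.90, 7.94 and 7.96, against 7.82, 8.01, 8.16, 7.90 and 8.04 in wild-type hindlimbs. Its Lmx1b -/- forelimbs had 7.81, 7.66, 7.75, 7.77 and 7.67, against 7.92, 7.92, 7.87, 7.92 and 7.75 in wild-type forelimbs. The groups overlapped in both limb types. The difference was -0.13 (SE 0.061, 95% interval -0.25 to 0.00, unadjusted p = 0.0518; limma, adjusted p = 0.345), at -0.11 in hindlimbs and -0.14 in forelimbs.

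Epha3 encodes an ephrin-A receptor known on axons of the medial motor column, which supply the trunk muscles. Its arrays stood at 6.71, 7.79, 7.71, 7.75 and 7.70 in Lmx1b -/- hindlimbs and 7.77, 7.84, 7.84, 7.51 and 7.81 in wild-type hindlimbs. Forelimbs had 7.53, 7.69, 7.41, 7.95 and 7.18 in Lmx1b -/- and 8.0, 7.87, 7.90, 7.77 and 7.67 in wild type. Lmx1b -/- hindlimb replicate 6 lay far below its group, and Epha3 had the widest spread within groups, an SD of 0.287. The difference was -0.26 (SE 0.114, 95% interval -0.49 to -0.02, unadjusted p = 0.0365; limma, adjusted p = 0.298), and it was -0.15 without that array (adjusted p = 0.352). In hindlimbs alone the value was -0.22 with that array and -0.02 without it.

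Epha5, a receptor known mainly from neurons, was dim, with a mean of 5.0 over all arrays. It ran from 4.65 to 5.01 in Lmx1b -/- hindlimbs and 4.45 to 5.19 in wild-type hindlimbs, and from 5.04 to 5.32 in Lmx1b -/- forelimbs and 4.98 to 5.28 in wild-type forelimbs. The genotype difference was 0.01 (SE 0.079, 95% interval -0.16 to 0.17; limma, adjusted p = 0.988). Its larger contrast lay between limb types and is given further on.

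Ephb1, the receptor gene that directs axons of the medial division of the lateral motor column ventrally, was likewise dim, with a mean of 5.24. Its arrays ran from 5.10 to 5.52 in Lmx1b -/- hindlimbs and 5.05 to 5.42 in wild-type hindlimbs, and from 4.98 to 5.41 in Lmx1b -/- forelimbs and 5.03 to 5.39 in wild-type forelimbs. The difference was 0.02 (SE 0.066, 95% interval -0.12 to 0.15; limma, adjusted p = 0.947). A second probe set of Ephb1 gave -0.04 (SE 0.098, adjusted p = 0.902), and array detection calls were not used here, so whether either probe set stood above background is unknown.

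**Figure D3:**
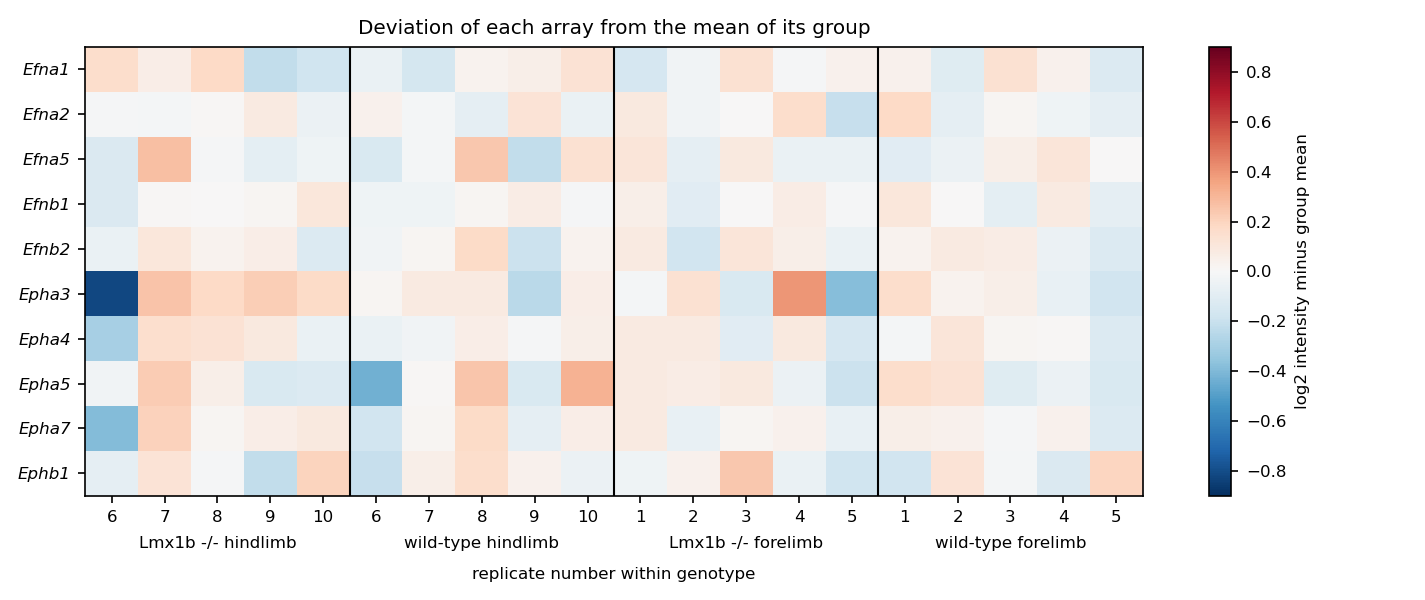
Deviation of each array from the mean of its group (colour, log2 intensity) for the 10 members (rows) in the 20 arrays (columns, grouped by genotype and limb type and numbered by replicate). Blue is below and red above the group mean. The darkest cell is Epha3 in Lmx1b -/- hindlimb replicate 6, where Epha4 and Epha7 are also low.

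Some arrays were the lowest of their group for several members. Lmx1b -/- hindlimb replicate 6 was the lowest of its group for 5 of the 10 members. Over all genes the SD of that array's deviations from its group was 0.186, where the 20 arrays ranged from 0.114 to 0.187. Its mean of 6 cartilage genes was 5.92, the lowest of a group that reached 7.21, and its mean of 10 epidermal genes was 7.52, the highest of a group that began at 6.58. It was also the lowest of its group for the muscle (6.90), neuron and axon (5.13) and macrophage (4.98) lists and for the hindlimb genes Tbx4 and Pitx1 (7.75). It was not the lowest for the limb mesenchyme, Schwann cell, endothelial, arterial and erythroid lists. The array with the widest deviations, Lmx1b -/- forelimb replicate 5, was also the lowest of its group for 5 members. Wild-type arrays did likewise, with wild-type hindlimb replicate 6 the lowest of its group for 5 members and wild-type forelimb replicate 5 for 6. The all-gene SD of wild-type hindlimb replicate 6 was 0.119. How often each array was the lowest of its group over all genes was not counted, so whether these counts are unusual is unknown. Whether tissue composition accounts for these values was not tested.

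Within either limb type, no member passed the threshold between genotypes. In forelimbs limma called 0 of 10 members against 1.27% of all genes, and 2 members (Efna5 and Efnb2) had an unadjusted p under 0.05 against 13.2%. In hindlimbs it called 0 of 10 against 0.231%, and the same 2 genes had an unadjusted p under 0.05 against 5.75%. Groups did not overlap for 1 member in forelimbs, Efna5, against 2.53% of all genes, and for 0 members in hindlimbs, against 1.49%. For the difference of the genotype effect between limb types, limma called 0 of 10 members against 0.0201% of genes, with 0 at an unadjusted p under 0.05 against 3.63%. The members' median differences were -0.02 in forelimbs and -0.10 in hindlimbs, where all genes had medians of 0.00 and -0.00.

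Hindlimbs were next set against forelimbs within each genotype, and again no member passed. In Lmx1b -/- limbs limma called 0 of 10 members against 0.617% of all genes, and 4 members (Efna5, Efnb1, Efnb2 and Epha5) had an unadjusted p under 0.05 against 9.85%, all lower in hindlimbs. In wild-type limbs it called 0 of 10 against 3.26%, and 2 members (Efna2 and Epha5) had an unadjusted p under 0.05 against 16.5%. Limb types did not overlap for 1 member in Lmx1b -/- limbs, Epha5, against 1.73% of genes, and for 0 members in wild type, against 4.98%. The comparisons between limb types share arrays with those between genotypes, so they are not independent of them.

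Epha5 had the largest limb-type difference of the 10 members in either genotype. Its Lmx1b -/- hindlimbs had 4.76, 5.01, 4.84, 4.65 and 4.67, against 5.30, 5.29, 5.32, 5.17 and 5.04 in Lmx1b -/- forelimbs. Wild-type hindlimbs had 4.45, 4.88, 5.13, 4.74 and 5.19, against 5.28, 5.25, 5.01, 5.07 and 4.98 in wild-type forelimbs. All 5 mutant hindlimbs lay below all mutant forelimbs, whereas in wild type 3 of 5 hindlimbs did so. The difference was -0.44 in Lmx1b -/- limbs (SE 0.112, 95% interval -0.67 to -0.21, unadjusted p = 0.000761; limma, adjusted p = 0.0912) and -0.24 in wild-type limbs (SE 0.112, adjusted p = 0.288). The difference between these values was -0.20 (SE 0.159, 95% interval -0.53 to 0.13; limma, adjusted p = 1). The call was made in 1 of 20 fits that left out an array, without wild-type hindlimb replicate 6 (adjusted p = 0.0306), and in 0 of 16 other fits.

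The hindlimb minus forelimb value of Efna2 was -0.02 in Lmx1b -/- limbs (SE 0.068; limma, adjusted p = 0.963) and 0.15 in wild-type limbs (SE 0.068, adjusted p = 0.27). Efna5 and Efnb2 had lower mean levels in hindlimbs in each genotype. For Efna5 the values were -0.19 in Lmx1b -/- limbs and -0.15 in wild-type limbs, and for Efnb2 they were -0.19 and -0.14, none past the threshold (limma, adjusted p from 0.329 to 0.47). Skeletal muscle genes also differed by limb type. In Lmx1b -/- hindlimbs 2 of 20 were called lower against 0.617% of all genes called, with a median difference of -0.33. In wild-type hindlimbs 18 of 20 were called lower against 3.26%, with a median difference of -0.59. The part of muscle genes in the values of these members was not tested.

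**Figure D4:**
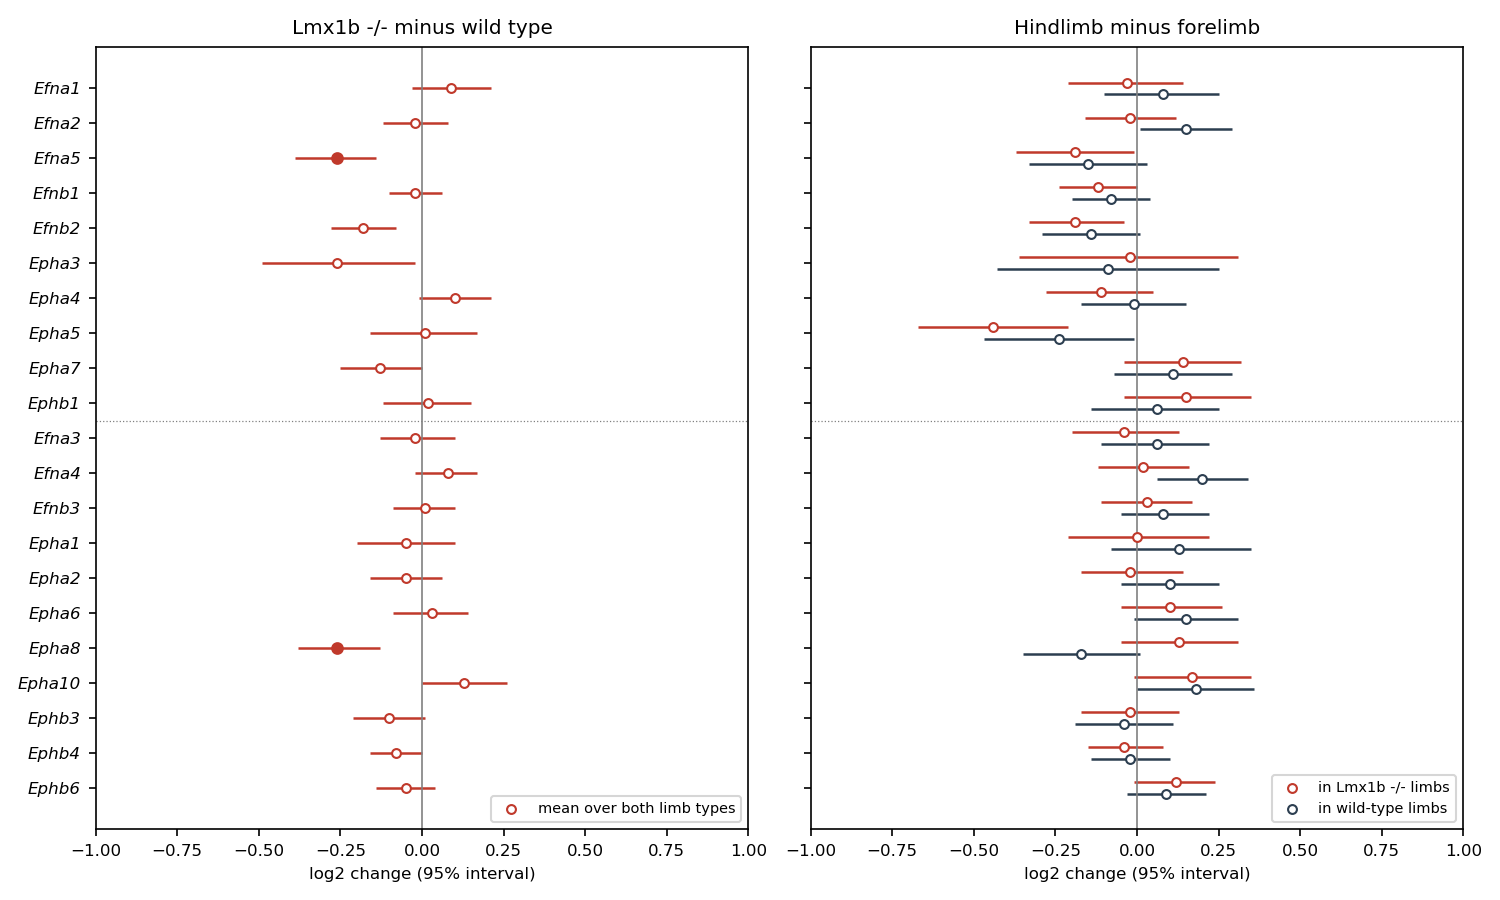
Log2 changes with 95% intervals for the 10 members (above the dotted line) and the 11 other ephrin and Eph receptor genes (below it), as Lmx1b -/- minus wild type over both limb types (left) and as hindlimb minus forelimb in each genotype (right). Filled points are past an adjusted p of 0.05 and open points are not. Efna5 and Epha8, both at -0.26, are the only filled points on the left, and no point is filled on the right.

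Of the other 12 ephrin and Eph genes listed, 11 had a probe set with a single symbol, and Ephb2 was not analysed here. Over both limb types 1 of these 11 fell, Epha8, and none rose, where 2.04% of all genes were called. In limma 2 of the 11 had an unadjusted p under 0.05 (Epha8 and Epha10), against 14.7% of all genes. Epha8 encodes an ephrin-A receptor known from midbrain axons and was dim, with a mean of 4.47, and whether it stood above background is unknown. Its level in Lmx1b -/- forelimbs was 4.21, 4.12, 4.35, 4.25 and 4.44, against 4.62, 4.68, 4.53, 4.93 and 4.66 in wild-type forelimbs. In Lmx1b -/- hindlimbs it was 4.55, 4.28, 4.52, 4.25 and 4.43, against 4.38, 4.68, 4.39, 4.48 and 4.64 in wild-type hindlimbs. The forelimb groups did not overlap and the hindlimb groups did. Forelimb groups did not overlap for 1 of these 11 genes, against 2.53% of all genes. In limma 1 of the 11 was called in forelimbs, against 1.27% of all genes.

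Epha8 fell by 0.26 over both limb types (SE 0.060; limma, adjusted p = 0.026) and by 0.41 in forelimbs (SE 0.085, adjusted p = 0.0155), and was at -0.11 in hindlimbs (SE 0.085, adjusted p = 0.966). The difference between the limb types was 0.30 (SE 0.121, unadjusted p = 0.0213; limma, adjusted p = 1). Its call over both limb types held in 15 of 20 fits that left out an array and in 9 of 15 others, and its forelimb call in 18 of 20 and 9 of 15. Both calls were lost without Lmx1b -/- forelimb replicate 2 and without wild-type forelimb replicate 4, and the call over both limb types also without Lmx1b -/- hindlimb replicate 9 and without wild-type hindlimb replicates 7 and 10 (limma, adjusted p from 0.0525 to 0.0594). Among the remaining ligand genes, all 5 wild-type hindlimbs lay above all wild-type forelimbs for Efna4, by 0.20 on average (SE 0.066; limma, adjusted p = 0.112). Groups did not overlap in that comparison for 1 of the 11 other ephrin and Eph genes, against 4.98% of all genes. In Lmx1b -/- limbs the Efna4 difference was 0.02 (SE 0.066).

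A list of 32 partners of Eph signalling holds adaptors, kinases and exchange factors inside the cell and also surface proteins such as Adam10, Fgfr1 and Cntn1. Of these 32, 1 passed over both limb types against 2.04% of all genes, and 8 had an unadjusted p under 0.05 (limma) against 14.7%. Their median difference was -0.01, where that of all genes was -0.00. The gene that passed was Cntn1, which encodes contactin 1, a lipid-anchored adhesion protein of the axon surface and no intracellular signal carrier. It fell by 0.90 in forelimbs (SE 0.100; limma, adjusted p = 1.56e-05) and was at -0.07 in hindlimbs (SE 0.100, adjusted p = 0.99), and the difference between these effects was 0.82 (SE 0.142, adjusted p = 0.0435). The difference itself was lost in 22 of 35 other fits, 15 of which left out an array. Chn1, which encodes the Rac-inactivating protein that EphA4 uses to stop axon growth in the mouse, did not pass, at 0.13 (SE 0.046, limma adjusted p = 0.179). Chn2 of the same list had the opposite sign, at -0.15 (SE 0.052, limma adjusted p = 0.149), and did not pass either. Of the 32 genes, 21 had negative and 11 had positive differences over both limb types.

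Other cues that guide limb motor axons were counted in the same fit. Of 18 genes measured, 5 fell and 1 rose over both limb types against 2.04% of all genes called, and 9 had an unadjusted p under 0.05 (limma) against 14.7%. Their median difference was -0.13, where that of all genes was -0.00. The genes that fell were the neuropilin gene Nrp2, the GDNF co-receptor gene Gfra1, the semaphorin genes Sema3a and Sema3c, and Ntn1, which encodes the diffusible cue netrin-1 and was lower by 0.29 (SE 0.061; limma, adjusted p = 0.0105). Hgf, the ligand of the Met receptor that draws muscle precursors and motor axons into the limb, rose by 0.31 (SE 0.080, adjusted p = 0.0481), and that call was lost in 20 of 36 other fits, 13 of which left out an array. Ntn1 and Sema3c, like Efna5, lost their calls with each of the muscle, neuron and endothelial lists in the fit, and Sema3a lost its call with the neuron and endothelial lists. Nrp2 and Gfra1 kept theirs over both limb types in all 36 other fits. Between limb types, the semaphorin co-receptor gene Plxna4 was lower by 0.39 in Lmx1b -/- hindlimbs than in Lmx1b -/- forelimbs (SE 0.074; limma, adjusted p = 0.0121), a call lost in 5 of 36 other fits, 1 of them without Lmx1b -/- forelimb replicate 1. The netrin receptor gene Dcc was lower by 0.47 in the same comparison (SE 0.097, limma adjusted p = 0.0232). That call was lost in 10 of 35 other fits, among them those without Lmx1b -/- forelimb replicates 1, 2 and 3 and without Lmx1b -/- hindlimb replicates 9 and 10. In wild-type limbs Dcc was at -0.62 (SE 0.097, limma adjusted p = 0.000722), a call lost in 1 of 35 other fits. Plxna4 was at -0.21 there (SE 0.074, limma adjusted p = 0.132). Of the 18 genes, 4 were called lower in wild-type hindlimbs (Gfra1, Plxna2, Dcc and Met) against 3.26% of all genes. In Lmx1b -/- hindlimbs Plxna4 and Dcc were the 2 called, against 0.617%. The wild-type call of Met was lost in 15 of 36 other fits.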

How the data were processed

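The deposited values are intensities, 1 per probe set and array, made by the authors with RMA per the submitters' processing notes. The software version, the annotation and the build of that step were not given in the sources used here. Per the labels, 300 ng of total RNA went into each labelling. Of 35512 probe sets, 21789 carried 1 symbol, and they gave 19936 genes. No column belonged to a sample outside the list. Intensities were turned into log2 values without a pseudocount. All comparisons came from 1 limma 3.58.1 fit (R 4.3.3) on 4 group means with eBayes, Benjamini-Hochberg adjusted over all genes, threshold 0.05, tested on simulated data. Python 3.11.15 (pandas 2.3.3, numpy 2.4.6) made the tables. Members past the threshold and Efna2, Efna5, Efnb2, Epha4 and Epha7 were named by rule, with every array's value. The values of Epha3 and Epha5 by array, and the genes named from the other lists, were singled out after their values were seen. The members and lists were chosen with earlier results of these data known. Alternatives covered scaling, weights, filters, covariates, blocks and single arrays left out. The number of arrays limits the precision.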

Additional observations from a re-analysis of the deposited data

Results flagged for a closer look

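In 2 of 40 groups of 5 arrays looked at, 1 array lay apart from the rest of its group by more than 0.71 of the group's range, and chance alone gives about 1 in 20 groups. Both concern Epha3. It was at 6.71 in Lmx1b -/- hindlimb replicate 6, where the others of the group ran from 7.70 to 7.79. It was at 7.51 in wild-type hindlimb replicate 9, where the others ran from 7.77 to 7.84.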

How the results depend on the processing

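Of the 10 members, 1 was called over both limb types, and 0 were called with array medians centred, with the muscle, neuron and axon or endothelial list as a covariate, with limbs sharing a number averaged or at an adjusted p under 0.01. With array weights, an intensity trend in eBayes, a mean level of at least 5, a pseudocount of 16 or side as a covariate, 2 were called, Efna5 and Efnb2. Leaving out single arrays gave 0 to 2 members over both limb types and 0 to 1 for hindlimbs against forelimbs in Lmx1b -/- limbs, and 0 in the other comparisons. Over all genes the count was 406, against 255 with array medians centred, 768 with array weights, 105, 78 and 122 with the muscle, neuron and endothelial lists, 216 with limbs averaged, and 260 to 595 without single arrays. The causes were not tested. Centring on the medians of the tested genes was chosen after seeing the data and kept 1 call. The same replicate number across genotypes gave correlations of deviations from -0.31 to 0.26. Of 10 Lmx1b -/- arrays, 3 correlated best with the wild-type array of their number. The same side and number across limb types gave -0.23 to 0.23. Such correlations cannot tell whether arrays share an embryo, litter or day, so whether the numbers pair arrays is unknown. With the replicate block 1 member was called over both limb types and 0 in the other comparisons, and Epha8 was no longer called (adjusted p = 0.0753 over both limb types and 0.059 in forelimbs). Of 59 member values that were not called, 33 kept their sign in all 36 settings and 26 did not. No called value changed sign.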
